A study of Homo sapiens with 4 samples.

Results

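The genes described here are IFITM1, IFITM2, IFITM3 and IFITM10, the 4 members of the interferon-induced transmembrane (IFITM) family chosen from the 43317 gene names on the array. They were read by 5 of its 58201 probes. IFITM1 was chosen because its signal was high in the cisplatin-resistant cells, and the other 3 were taken as its relatives, so the differences between resistant and parental cells that follow are a description and carry no test. Expression was measured in the head and neck squamous cell carcinoma (HNSCC) lines HN4 and HN30, for which the labels name no drug, and in HN4/DDP and HN30/DDP (HN4_CR and HN30_CR in the sample labels), which the study derived from them by raising the cisplatin dose in steps. The labels give 20 μM cisplatin for 48 h for HN4/DDP and HN30/DDP, without saying whether this was an exposure just before harvest or the usual culture. The study's methods name 20 μM cisplatin as the dose in which the resistant cells were kept. Lasting resistance and the presence of the drug therefore cannot be told apart. Each of the 4 conditions was 1 sample on 1 Agilent array, which limits the precision of every difference.

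IFITM proteins are small membrane proteins that sit in the plasma membrane and in endosomes and hinder the fusion of enveloped viruses with the cell. Interferons bind receptors on the cell surface, the JAK kinases then phosphorylate STAT proteins, and these join IRF9 in a complex that binds the interferon-stimulated response element in front of IFITM1, IFITM2, IFITM3 and other interferon-stimulated genes. IFITM1 is found mainly at the cell surface, IFITM2 and IFITM3 mainly in endosomes, and IFITM10 is a more distant relative whose function is little known. In epithelia IFITM3 is present at rest, and interferon raises it further.

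On the hg19 build used by the array all members lie on chromosome 11. IFITM2 (NM_006435), IFITM1 (NM_003641) and IFITM3 (NM_021034) are neighbours, with probes at chr11:309109-309168 for IFITM2 on the plus strand, chr11:315054-315113 and chr11:315209-315268 for IFITM1 on the plus strand, and chr11:319855-319914 for IFITM3 on the minus strand. IFITM10 (NM_001170820) lies farther along the same arm, with its probe at chr11:1753640-1753699 on the minus strand. The probes are shown because near-identical relatives can share signal on an array. The IFITM2 and IFITM3 probes overlapped best over 40 bases, 34 of them identical, printed in capitals:
IFITM2 A_24_P287043: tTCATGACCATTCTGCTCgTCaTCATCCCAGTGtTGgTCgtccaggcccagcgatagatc
IFITM3 A_23_P87545: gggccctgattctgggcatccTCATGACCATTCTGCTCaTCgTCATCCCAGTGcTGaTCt
Their longest run in common was 17 bases. Against the probes of every other member, the longest shared run of an IFITM1 probe was 11 bases, with IFITM10, around the AATAAA polyadenylation signal. Probes were compared with one another and not with transcripts, so whether any of them also bound RNA of another family gene was not tested.

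The 2 IFITM1 probes share no overlap in the transcript. A_33_P3423941 ends on the stop codon, given in capitals, and A_23_P72737 lies downstream of it, where a 30-base stretch around AATAAA is shown, as for IFITM10:
IFITM1 A_33_P3423941: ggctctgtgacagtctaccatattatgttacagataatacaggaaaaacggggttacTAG
IFITM1 A_23_P72737: acagtgtcattcAATAAAgtgcacgtgctt
IFITM10 A_33_P3358601: catttgacattcAATAAAcattgtacgaac

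IFITM1 had the largest difference of the members in HN4/DDP. The processed intensity of probe A_23_P72737 was 280.4 in HN4 and 39704 in HN4/DDP, against 89.3 in HN30 and 2894 in HN30/DDP. Probe A_33_P3423941 read 131 in HN4 and 18431 in HN4/DDP, against 46.6 in HN30 and 1294 in HN30/DDP. Both resistant arrays were above both parental arrays with each probe. In bulk RNA a change in the share of cells with IFITM1 and a change in the amount per cell cannot be told apart. For comparison between arrays, each log2 intensity was taken relative to the 75th percentile of its own array, and beside each difference stands the SD that follows from the error estimated by the scanning software. That SD covers the reading of a spot and not the variation between cultures.

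On this scale, A_23_P72737 was higher by 7.14 (SD 0.20) in HN4/DDP than in HN4, which is 141-fold. In HN30/DDP it was higher by 4.91 (SD 0.21), or 30.02-fold. A_33_P3423941 gave 7.13 (SD 0.21) and 4.69 (SD 0.23). The probes thus differed from each other by 0.01 in HN4/DDP and 0.22 in HN30/DDP, both less than the scanner SD of 0.29 and 0.32. Among probes that passed the background test on resistant and parental array alike, their ranks from the top were 2 and 3 of 30527 in HN4/DDP, and 31 and 52 of 30138 in HN30/DDP. Probes above background on 1 array of the pair have a bound alone and were left out of these ranks. For the calls below a probe counted as tested when it was well above background on at least 1 array of the pair, which held for 35064 probes in HN4/DDP and 37055 in HN30/DDP.

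The lines differed in the IFITM1 level itself. The difference of HN30 from HN4 was -1.50 (SD 0.21) with A_23_P72737 and -1.34 (SD 0.24) with A_33_P3423941. The difference of HN30/DDP from HN4/DDP was -3.73 and -3.78 (SD 0.20 for each). The order of the IFITM1 levels was therefore HN4/DDP, HN30/DDP, HN4 and HN30 with either probe, each step larger than the scanner SD. No test of the steps was made.

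IFITM2, an endosomal member, had an intensity of 20716 in HN4 and 62061 in HN4/DDP, against 18904 in HN30 and 26296 in HN30/DDP. IFITM3, the member best known for restricting influenza virus, had 41862 in HN4 and 115056 in HN4/DDP, against 36920.4 in HN30 and 49263 in HN30/DDP. The genes moved alike: HN4/DDP stood apart from the other 3 arrays, and the parental lines were close together. IFITM2 was higher by 1.58 (2.98-fold, SD 0.20) in HN4/DDP and 0.37 (1.29-fold, SD 0.20) in HN30/DDP, the latter turning to -0.053 when arrays were scaled by their median. IFITM3 was higher by 1.45 (2.74-fold) and 0.31 (1.24-fold), with the same SD, the latter turning to -0.11 under that scaling. Between HN30 and HN4 the log2 difference was 0.02 for IFITM2 and -0.03 for IFITM3, within the scanner SD of 0.20, so those neighbours in the order could not be separated.

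The IFITM1 difference of A_23_P72737 exceeded that of IFITM2 by 5.56 in HN4/DDP and 4.54 in HN30/DDP. It exceeded that of IFITM3 by 5.69 and 4.60, with a scanner SD of 0.29 for each gap. The difference of IFITM2 exceeded that of IFITM3 by 0.12 and 0.06, also with an SD of 0.29. The pseudogene IFITM4P on chromosome 6, which is no member, differed by 1.64 in HN4/DDP and 0.25 in HN30/DDP, the latter below 0 under median scaling. Its probe shared at most 7 bases in a row with any member's probe. The IFITM4P probe was not compared with the transcripts of the members, so whether it also bound their RNA was not tested.

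IFITM10 had another pattern over the lines. Its intensity was 44.8 in HN4 and 33.3 in HN4/DDP, against 35.1 in HN30 and 1394 in HN30/DDP. Only HN30/DDP stood apart, and the other 3 arrays lay close to one another. The log2 difference was -0.44 (SD 0.28) in HN4/DDP and 5.20 (36.8-fold, SD 0.25) in HN30/DDP, where the probe ranked 17 from the top of the probes well above background on both arrays. HN30/DDP exceeded HN4/DDP by 5.44 (SD 0.25). Every member probe was well above background on all 4 arrays, but the software did not find the outline of the IFITM10 spot on the HN4 array and read it at its nominal position.

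**Figure D1:**
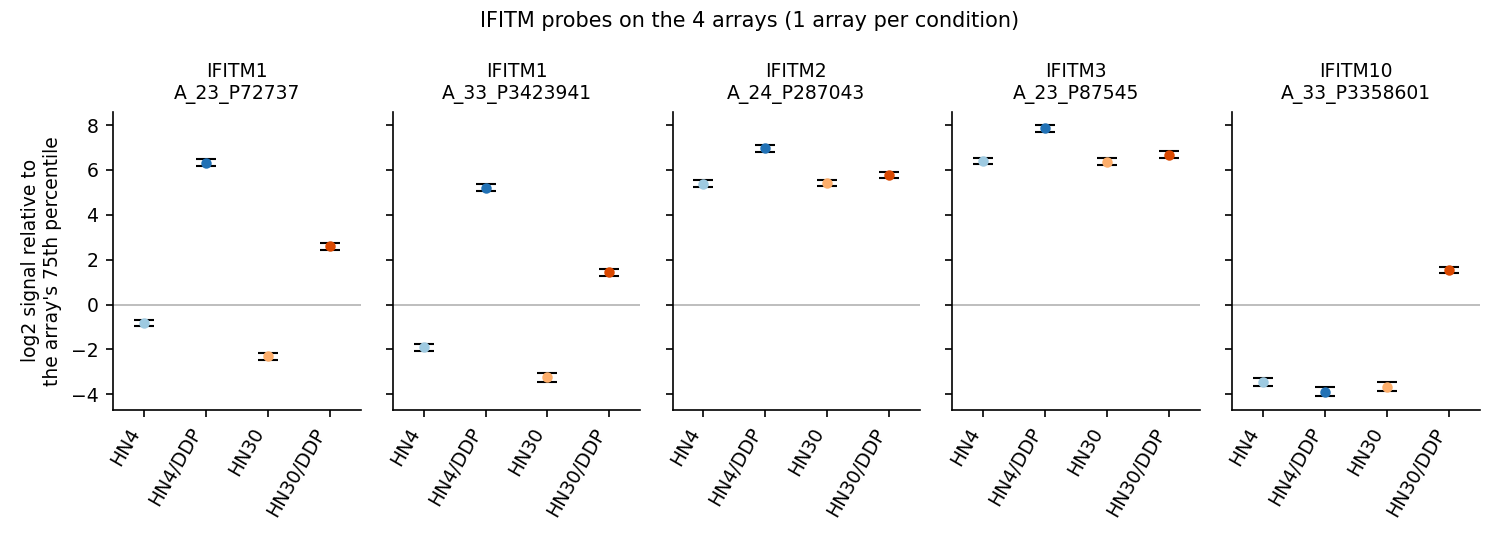
Log2 processed intensity relative to the 75th percentile of the array (vertical axis) on the HN4, HN4/DDP, HN30 and HN30/DDP arrays (horizontal axis), 1 panel per IFITM probe, with bars of 1 scanner SD and 1 array per point. Both IFITM1 probes stand high on HN4/DDP and HN30/DDP, IFITM2 and IFITM3 are highest on HN4/DDP, and IFITM10 is high on HN30/DDP alone; heights are not comparable between panels, since probes differ in brightness.

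A probe was called higher when its log2 difference was over 2, or over 1 as the looser call, with the resistant array well above background. In HN4/DDP 2 of the 5 member probes were over 2, where 3.69% of all tested probes were, and 4 were over 1, where 9.57% of all were. In HN30/DDP 3 of the 5 were over 2, against 8.68% of all probes, and the same 3 were the ones over 1, against 20.3%. No member probe was called lower. Since these contrasts chose the members, nothing is read from the counts. The median difference of the member probes was 1.58 in HN4/DDP and 4.69 in HN30/DDP, beside -0.07 and 0.07 over all tested probes.

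**Figure D2:**
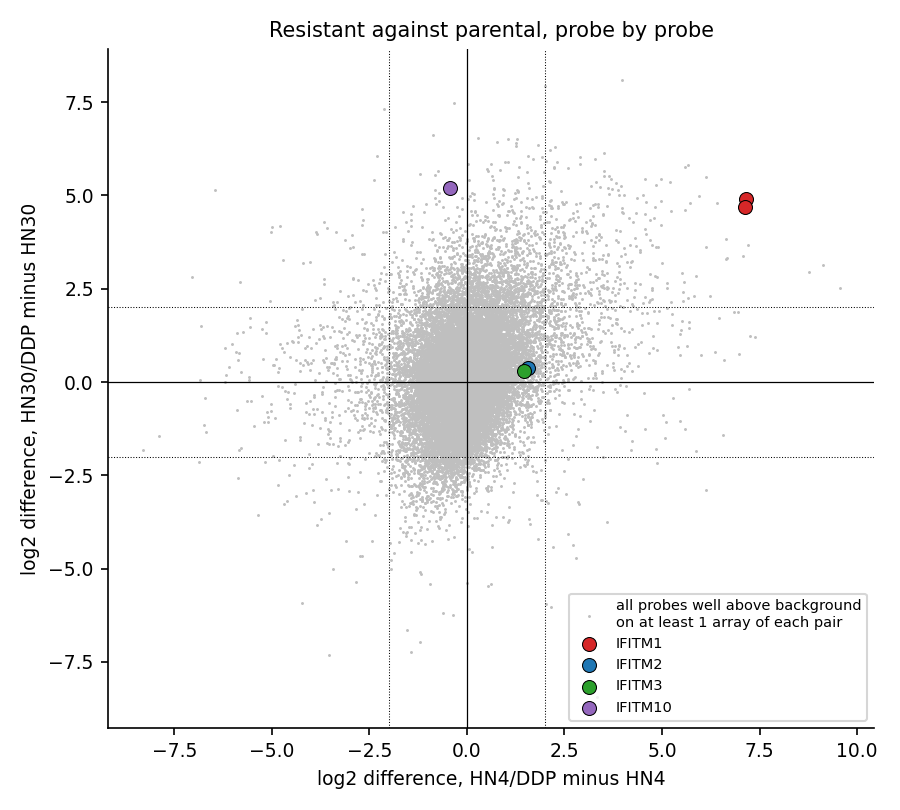
Log2 difference of HN4/DDP minus HN4 (horizontal axis) and of HN30/DDP minus HN30 (vertical axis) for the 33460 probes well above background on at least 1 array of each pair in grey, with the IFITM probes in colour and dotted lines at differences of 2. The IFITM1 probes lie far to the upper right (7.14 and 4.91 for A_23_P72737), IFITM2 and IFITM3 lie near 1.58 and 1.45 on the horizontal axis, and IFITM10 lies at -0.44 and 5.20.

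The scaling of the arrays mattered most for the small differences in HN30/DDP. Median scaling moved the median difference of all tested probes there by -0.42 and the 75th percentile over probes well above background on all arrays moved it by 0.35, while quantile normalization and the deposited table moved it by -0.14 each and normexp background correction by -0.11. In HN4/DDP no setting moved it by over 0.1. Relative to that median, IFITM2 in HN30/DDP was higher by 0.29 and by 0.29 to 1.02 over the settings tried, and IFITM3 by 0.23 and 0.23 to 0.89. The change of sign under median scaling was thus no larger than the shift of all probes. Relative to the same median, A_23_P72737 of IFITM1 ranged from 6.91 to 7.22 in HN4/DDP and from 4.25 to 5.05 in HN30/DDP, and IFITM10 from 3.80 to 5.21 in HN30/DDP and from -0.38 to -0.13 in HN4/DDP.

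**Figure D3:**
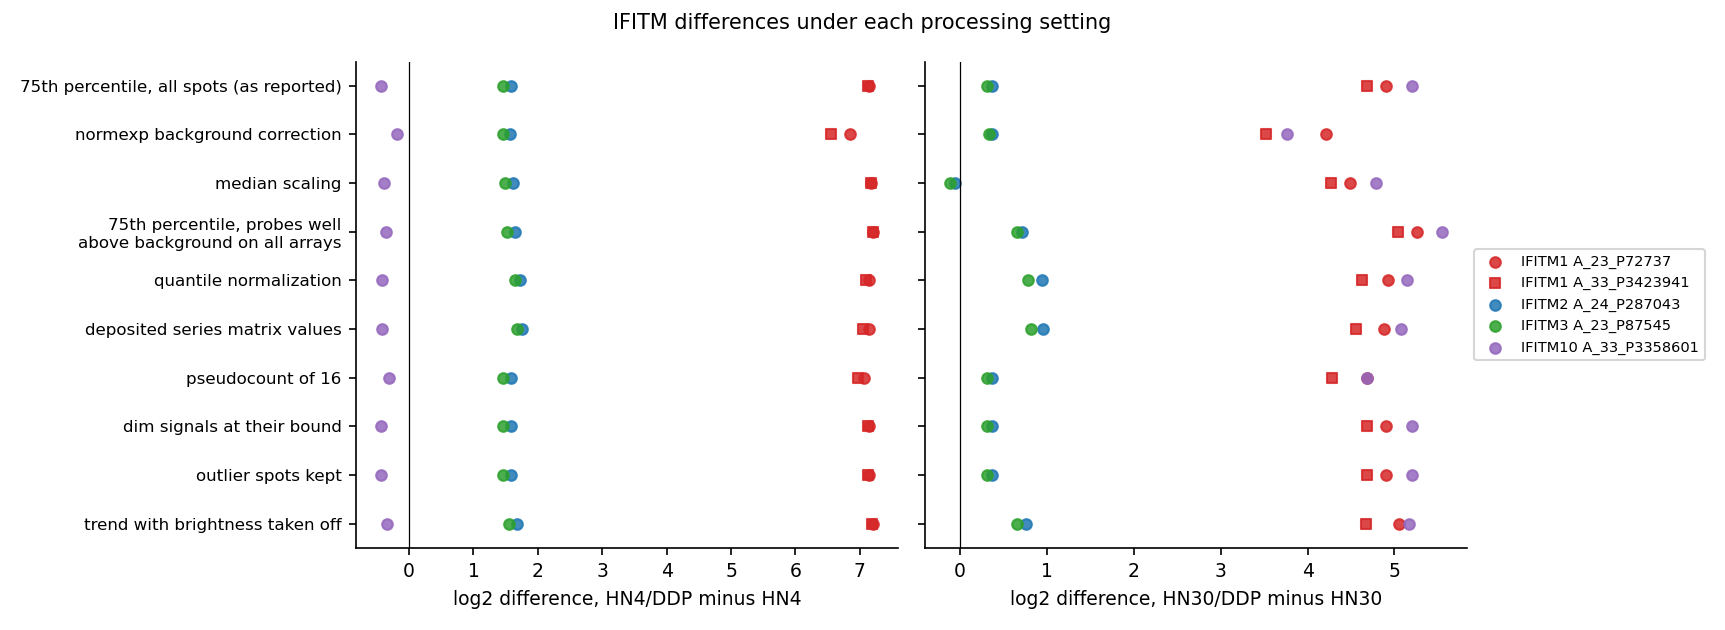
Log2 difference, resistant minus parental, of each IFITM probe (horizontal axis; HN4/DDP on the left and HN30/DDP on the right) under each processing setting (rows). IFITM1 stays at 6.55 or more in HN4/DDP and 3.52 or more in HN30/DDP, and IFITM2 and IFITM3 cross 0 in HN30/DDP under median scaling.

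The sequences in front of the genes are shown for IFITM1 and IFITM3, the members with a RefSeq promoter window in the GRCh38.p14 table. The interferon-stimulated response element was searched on both strands as GAAA, any 2 bases and again GAAA, and the matches are in capitals. Each stretch runs from 95 bases before the annotated start to 10 bases after it, at chr11:313945-314049 on the plus strand for IFITM1 and chr11:320851-320955 on the minus strand for IFITM3:
IFITM1: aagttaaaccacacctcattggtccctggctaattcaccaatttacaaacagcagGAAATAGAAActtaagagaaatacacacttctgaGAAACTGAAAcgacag
IFITM3: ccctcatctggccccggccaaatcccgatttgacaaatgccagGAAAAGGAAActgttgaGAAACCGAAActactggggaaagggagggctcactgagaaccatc
Each window held 2 matches, with first bases at -40 and -6 in IFITM1 and at -52 and -35 in IFITM3 relative to the start. Of all 35116 windows of the table, which span 250 bases before to 50 after a start, 3.57% held a match. Of the 43 interferon-stimulated genes listed below, 36 had a window, and 23 of these (63.9%) held a match. The gamma-activated site TTCNNNGAA (N being any base) had a match in the IFITM1 window, at -12 and overlapping the second element, and none in that of IFITM3 (7.66% of all windows held one). TGACG, the core of the cAMP response element, was in neither, where 24.6% of all windows had it. IFITM1 and IFITM3 thus share the element by its letters while their differences were 7.14 and 1.45 in HN4/DDP; binding was not measured.

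The other genes of the interferon pathway were followed from lists. A gene was represented by its brightest probe and counted at a log2 difference over 1. Over all tested genes 9.31% were higher and 8.65% lower in HN4/DDP, and 19.8% were higher and 13.3% lower in HN30/DDP. At a difference over 2 the shares of higher genes were 3.61% and 8.37%. The median over all tested genes was -0.08 in HN4/DDP and 0.06 in HN30/DDP.

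Among the ligands, 17 of 21 listed genes had a probe, and 5 of them were tested in each line. In HN4/DDP 2 were higher and 1 was lower, and in HN30/DDP 2 were higher. IFNB1, a type I interferon made by many infected cells, was not well above background on HN4, HN30 or HN30/DDP, and was at least 1.09-fold higher in HN4/DDP. IFNL1, a type III interferon, was not well above background in the parental lines and was at least 2.87-fold higher in HN4/DDP and at least 1.60-fold higher in HN30/DDP. Its relative IFNL2 differed by 0.67 in HN4/DDP and rose by 1.27 in HN30/DDP, and IFNL3, above background on HN30/DDP only, was at least 1.06-fold higher there. IFNE, an epithelial type I interferon, fell by 1.20 in HN4/DDP and differed by -0.56 in HN30/DDP, and IFNA4 differed by -0.63 and 0.36. IFNG, the type II interferon, IFNK, IFNW1 and the other IFNA probes were not well above background on any array. The 2 higher ligands in HN30/DDP were 0 under median scaling, quantile normalization and in the deposited table, and with normexp 0 ligands were higher or lower in either line. With a pseudocount of 16, with dim signals at their bound and with the trend with brightness taken off, the split was 1 higher and 1 lower in HN4/DDP and 1 ligand was higher in HN30/DDP.

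The 6 receptor chains had a median difference of -0.15 in HN4/DDP and -0.27 in HN30/DDP. IFNAR1, the first chain of the type I receptor, fell to 0.467 of its parental level in HN4/DDP and to 0.268 in HN30/DDP. IL10RB, a chain of the type III receptor, fell by 1.45 in HN4/DDP and differed by 0.84 in HN30/DDP. The other chains did not pass a difference of 1 in either line, at -0.53 and -0.19 for IFNAR2, 0.27 and -0.51 for IFNGR1, 0.64 and 0.26 for IFNGR2, and 0.23 and -0.36 for IFNLR1. With the 75th percentile over probes well above background on all arrays, and with the trend with brightness taken off, 1 chain was higher in HN30/DDP beside the 1 that was lower. With normexp 1 chain in place of 2 was lower in HN4/DDP.

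Among the signalling genes, IRF7, the regulator that amplifies interferon production, rose by 2.36 in HN4/DDP. IRF9, the DNA-binding part of the complex at the response element, rose by 1.60 there, while its partner STAT2 differed by 0.31. In HN30/DDP SOCS1, an inhibitor of JAK signalling, rose by 1.50, beside a difference of 0.97 in HN4/DDP. In HN30/DDP IRF7 differed by -0.21, IRF9 by 0.93 and STAT2 by 0.87. IRF1, a mediator of the interferon gamma response, differed by -0.91 in HN4/DDP and 0.49 in HN30/DDP. The kinase TYK2 differed by 0.55 and -0.84 and JAK1 by 0.14 and -0.42.

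Of the 43 interferon-stimulated genes, all were tested in both lines. In HN4/DDP 10 (23.3%) were higher and 0 were lower, and the median difference was 0.20. IFI27, a gene strongly induced by type I interferon, rose by 6.37, which is 82.5-fold, and IFI6, its relative, by 2.83. IFI44L rose by 3.29, MX1, a GTPase that blocks virus replication, by 1.47, and ISG15, a ubiquitin-like modifier, by 1.29. BST2, which tethers budding virus, differed by 0.20, and LY6E by -0.78. Genes over 2 numbered 4, namely IFI27, IFI44L, IFI6 and OAS1 (2.13), the last named because the count was small and after its value was seen.

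In HN30/DDP 7 (16.3%) were higher and 6 (14.0%) lower, with a median of 0.08, so that neither share was far from that of all genes. IFI44L, not well above background in HN30, was at least 17.2-fold higher and was the 1 gene over 2. IFI6 rose by 1.55 and BST2 by 1.18. IFI27 differed by 0.81, MX1 by 0.42, ISG15 by 0.07 and LY6E by -0.48. IFIT5 fell by 1.51 and DDX58, the RNA sensor RIG-I, by 1.47, while they differed by -0.69 and -0.77 in HN4/DDP. SAMD9L differed by -0.80 in HN4/DDP and -0.67 in HN30/DDP. The split of 7 higher and 6 lower became 5 and 12 under median scaling and 13 and 2 with the 75th percentile over probes well above background on all arrays. The IFITM1 difference was above that of every gene of this list in HN4/DDP. In HN30/DDP IFI44L has a lower bound alone, so its order against IFITM1 is not known. The differences of IFITM2 and IFITM3 lay inside the range of the list.

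**Figure D4:**
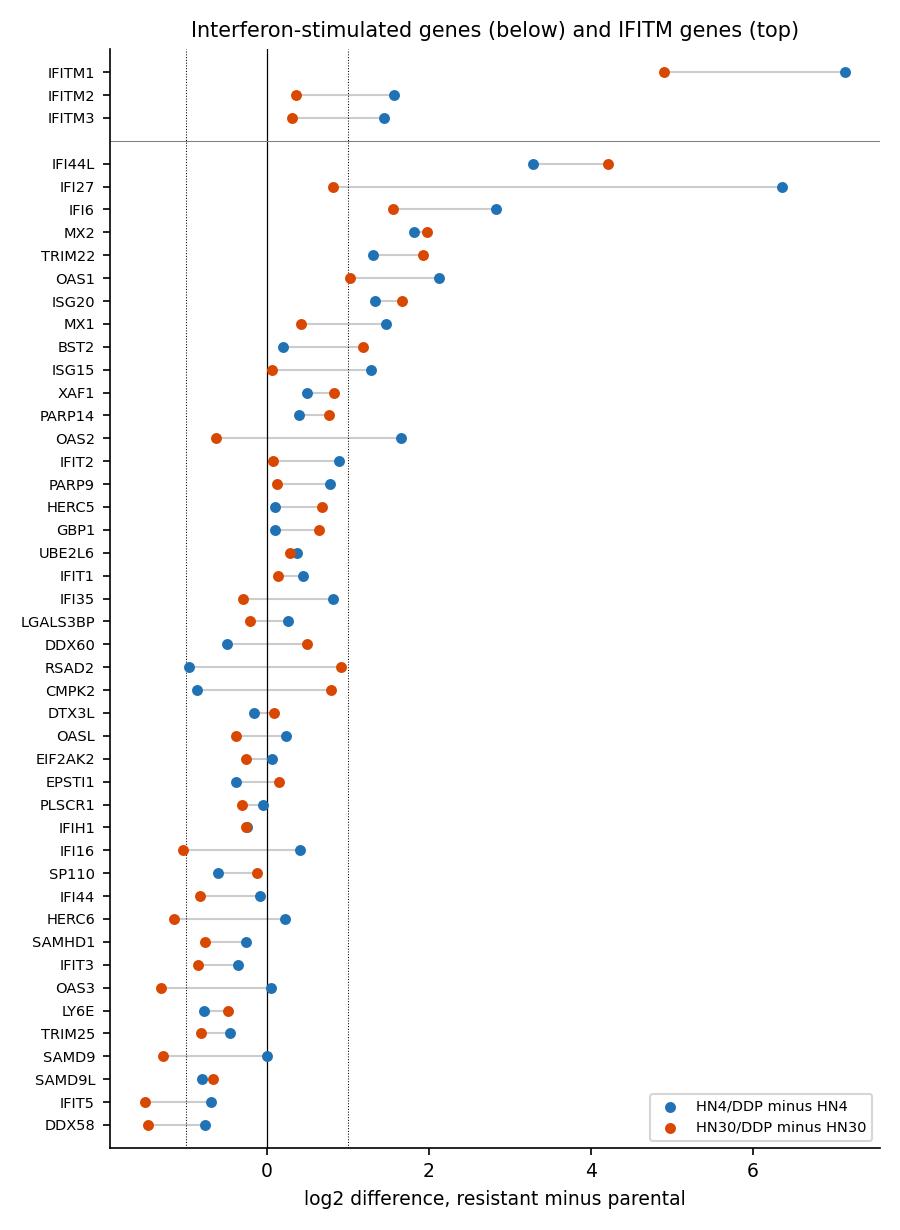
Log2 difference, resistant minus parental (horizontal axis), in HN4/DDP (blue) and HN30/DDP (orange) for the 43 interferon-stimulated genes ordered by the mean of both differences, with IFITM1 (probe A_23_P72737), IFITM2 and IFITM3 above the line; dotted lines mark differences of 1. IFI27 reaches 6.37 in HN4/DDP and 0.81 in HN30/DDP, IFI44L is high in both, and most of the list lies between the dotted lines.

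Genes for proteins that share the CD225 domain of the family, the membrane-inserted part, were on the array for 8 relatives outside the members, and 5 were tested in each line. TMEM91 rose by 1.95 in HN4/DDP and 2.87 in HN30/DDP. PRRT2, a synaptic protein, rose by 2.86 in HN30/DDP and differed by -0.74 in HN4/DDP. IFITM5, a bone-specific relative, was at least 1.77-fold lower in HN4/DDP, where it was not well above background, and at least 1.35-fold higher in HN30/DDP than in HN30. PRRT1 differed by -0.03 and 0.89 and TUSC5 by -0.04 and 0.76. SYNDIG1, SYNDIG1L and TMEM233 were not well above background on any array. The split in HN4/DDP, 1 higher and 1 lower, was 1 and 0 under every other scaling.

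The list of 8 partners and modifiers of IFITM proteins had a median difference of -0.25 in HN4/DDP and -0.99 in HN30/DDP. In HN4/DDP 1 (12.5%) was higher and 2 (25%) were lower, beside 9.31% and 8.65% of all tested genes. In HN30/DDP 1 (12.5%) was higher and 4 (50%) were lower, beside 19.8% and 13.3%. FYN, a kinase that phosphorylates IFITM3, rose by 3.05 and 4.06. CAV1, the caveolin that binds IFITM1, fell by 3.54 and 1.65. NEDD4, a ubiquitin ligase for IFITM3, fell by 1.24 in HN4/DDP and differed by -0.96 in HN30/DDP. In HN30/DDP the palmitoyltransferase ZDHHC20 fell by 1.02, the methyltransferase SETD7 by 1.91 and the protease ZMPSTE24 by 1.93, where in HN4/DDP they differed by -0.56, -0.05 and -0.46. CD81, a tetraspanin partner of IFITM1, differed by 0.26 and -0.55, and VAPA by 0.06 and -0.44. The split of 1 higher and 4 lower in HN30/DDP became 1 and 3 with normexp, with the 75th percentile over probes well above background on all arrays, with quantile normalization, in the deposited table and with the trend with brightness taken off, and 1 and 5 under median scaling.

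Neighbouring genes were taken within 250 kb of the probes. Around IFITM1, IFITM2 and IFITM3 lay 36 other genes, of which 27 were tested in HN4/DDP and 31 in HN30/DDP. In HN4/DDP 5 were higher and 2 lower with a median of 0.48, and in HN30/DDP 9 were higher and 2 lower with a median of 0.33. Over all tested genes 9.31% were higher and 8.65% lower in HN4/DDP, with a median of -0.08. In HN30/DDP 19.8% of all were higher and 13.3% lower, with a median of 0.06. Whether the neighbours differ from these shares was not tested. The transcripts ENST00000531076 and ENST00000605240, at 13.1 and 19.1 kb from the centre of the 3 genes, were well above background on HN30/DDP alone and were at least 10.3-fold and 22.8-fold higher there than in HN30. lnc-RASSF7-1 rose by 1.58 in HN4/DDP and 3.80 in HN30/DDP, ATHL1 by 1.39 and 1.58, and ANO9 by 1.60 and 1.31. Higher in HN4/DDP alone by this count were BET1L (1.74) and B4GALNT4 (1.16), and LOC101927270 and IFITM5 were lower there.

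In HN30/DDP LOC101927270 (1.93), LMNTD2 (1.90) and lnc-IFITM2-1 (1.14) were also higher, NLRP6 was counted higher but reached no bound above 1, and the RAS gene HRAS fell by 1.91 and the proteasome gene PSMD13 by 1.51. The highest difference of a neighbour in HN4/DDP was 1.74, beside 7.14 for IFITM1.

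Around IFITM10 lay 24 other genes, with 17 and 19 tested. In HN4/DDP 0 were higher and 5 lower, and in HN30/DDP 5 were higher and 2 lower. Of all tested genes 9.31% were higher and 8.65% lower in HN4/DDP, and 19.8% and 13.3% in HN30/DDP. SYT8, a synaptotagmin, fell by 4.61 in HN4/DDP and rose by 1.05 in HN30/DDP. The muscle troponin genes TNNI2 and TNNT3 fell by 5.74 and 3.77 in HN4/DDP and rose by 1.34 and 2.26 in HN30/DDP. ENST00000449749 fell by 1.70 and 1.32, and KRTAP5-6 was at least 1.44-fold lower in HN4/DDP. In HN30/DDP DUSP8 rose by 1.29, LOC101927645 was at least 2.59-fold higher and MRPL23 fell by 1.03.

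**Figure D5:**
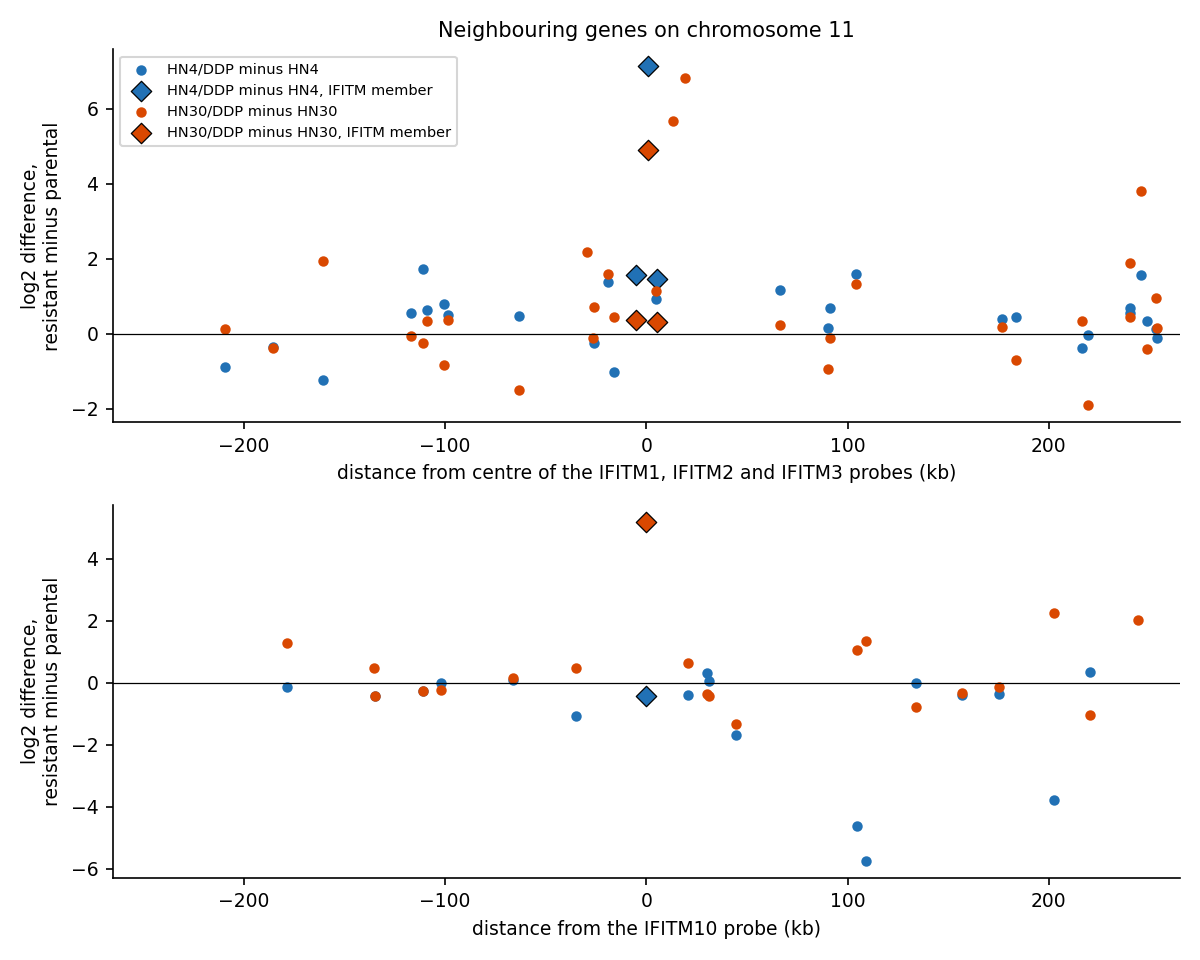
Log2 difference, resistant minus parental (vertical axis), against distance in kb from the centre of the IFITM1, IFITM2 and IFITM3 probes (upper panel) and from the IFITM10 probe (lower panel), for genes tested in HN4/DDP (blue) and in HN30/DDP (orange), with IFITM members as diamonds. IFITM1 stands at 7.14 and 4.91, the points above it in HN30/DDP are transcripts measured on HN30/DDP alone, and the 3 lowest points in the lower panel are TNNI2, SYT8 and TNNT3 in HN4/DDP.

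The genes whose pattern over the 4 arrays was most like that of IFITM1 were sought among 24421 genes that both resistant arrays read well above background, by the Euclidean distance of the log2 signals after each gene's own mean was taken off. By the signals as read, dim ones included, the nearest 5 were LOC344887 at a distance of 0.62, then FOXS1, MERTK, AKR1C3 and CREB5, the last at 1.59. AKR1C3, an aldo-keto reductase, rose by 6.13 in HN4/DDP and 3.63 in HN30/DDP, being above background on all arrays. The other 4 were not well above background in either parental line and passed the filter through the resistant arrays alone. Their distances rest on parental signals that were not measured above background. Neither these distances nor the order of the 5 genes is therefore known, and no link to IFITM1 is read from them. LOC344887 was at least 55.5-fold and 5.33-fold higher in HN4/DDP and HN30/DDP, the forkhead gene FOXS1 at least 31.5-fold and 2.87-fold, the receptor kinase gene MERTK at least 30.6-fold and 2.61-fold, and the transcription factor gene CREB5 at least 20.7-fold and 2.03-fold.

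The 75th percentile of the intensity ran from 444 to 496 over the arrays and 55.3% to 63.6% of spots were well above background, the highest share in HN30/DDP. All 4 arrays were on 1 slide and read in the same scan. The labelled cell type was checked with 6 squamous markers (KRT5, KRT14, KRT17, TP63, SFN and CDH1), of which 6 were well above background on every array. The keratin levels were not steady: KRT5 had a log2 signal of 2.79 in HN4 and -1.26 in HN4/DDP, against 2.84 in HN30 and 0.91 in HN30/DDP. KRT17 was at -1.78, 1.51, 0.54 and 0.73 in the same order, and KRT14 at -2.68, -0.35, 0.17 and 0.39. SFN was at 6.98, 7.13, 6.93 and 5.97, and CDH1 at 4.40, 4.98, 3.27 and 4.60. TP63 was at -0.77, -1.59, -0.81 and -0.87. The log2 summed signal of the 6 markers was 7.28, 7.46, 7.15 and 6.53. The part of any of these shifts in the IFITM differences was not tested. Among leukocyte markers, immune cells being a rich source of IFITM1, the T cell gene CD3E was well above background on HN30/DDP alone. PTPRC, the common leukocyte antigen, had a log2 signal of -2.84 in HN4 and -2.94 in HN4/DDP, against -3.10 in HN30 and -2.94 in HN30/DDP. The fibroblast list, whose COL1A2 was not well above background on any array, had a log2 summed signal of -1.43, 0.01, -2.33 and -0.45 in the same order, and the melanocyte list, whose MLANA was not either, of -1.78, -0.61, -1.61 and 0.19. These higher sums in the resistant arrays came mostly from COL1A1, at -1.85, -0.13, -3.15 and -0.72, and from PMEL, at -1.89, -0.64, -1.74 and 0.16, while PDGFRB was at -3.61, -3.62, -3.73 and -3.10. The part of either gene in the IFITM differences was not tested. The endothelial pair summed to -2.18, -3.18, -2.52 and -2.63.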

How the data were processed

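Total RNA of 4 samples was labelled with Cy3 and hybridised to one-colour Agilent SurePrint G3 arrays for human genes, version 3, by a company. The deposited scanner files hold the processed intensity of every spot, made with Feature Extraction 10.7.1.1, which subtracts the background and corrects trends within an array but does not normalise between arrays. A second file deposited by the authors gives log2 values for the same arrays, of which 58201 of 58341 entries matched a probe. Its columns have the same median, 4.65, and the same sorted values, as quantile normalization leaves them. Its differences correlated across probes with those used here with r = 0.999 in HN4/DDP and 0.968 in HN30/DDP, so its log scale and direction were settled, while no source used here gives its background treatment. Background correction and normalization are not named in the study's methods.

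From the intensities of 60901 spots that are not controls, log2 was taken and the 75th percentile of each array subtracted. Spots marked as outliers were left out (140 to 204 per array) and spots of a probe averaged. A signal counted as bright when the software marked it well above background. A fold against a dim signal is a bound ("at least"), set by the higher of the dim probe's own log2 signal and the lowest one well above background on that array, -4.76 in HN4 and -4.99 in HN4/DDP, against -4.63 in HN30 and -4.94 in HN30/DDP.

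Each resistant array was compared with its own parental array. With 1 array per condition no test was made, and precision is limited by the number of arrays. The members, gene lists, markers and calls were chosen with earlier results of these data known. The text names every IFITM probe, all genes of lists of 10 or fewer, and from longer lists STAT2, IRF9, IRF1, IRF7, ISG15, MX1, IFI6, IFI27, BST2, LY6E, IFNB1 and the 3 genes with the highest and the 3 with the lowest mean difference. It also names neighbours past a difference of 1 in either line and the 5 genes most like IFITM1. A few listed genes, and the list counts that need them, are not reported here. Counting and likeness were tested on simulated data. Probe sequences and coordinates are those of the array files (hg19), and promoters those of RefSeq (GRCh38.p14), which held windows for IFITM1 and IFITM3 of the 4 members. Protein sequences were not used here. Alternatives covered background correction (limma 3.58.1 normexp, offset 50, R 4.3.3), scaling, dim signals, thresholds and the probe per gene. Python 3.11.15, numpy 2.4.6, pandas 2.3.3 and matplotlib 3.10.9 were used.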

Additional observations from a re-analysis of the deposited data

Results flagged for a closer look

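Differences between resistant and parental cells of opposite sign in the lines were looked for among the member probes, where both had to exceed the scanner SD, and among the listed and neighbouring genes, where both had to pass a difference of 1. This held for 1 member probe and 4 neighbours. Other genes with opposite signs did not pass the limit in both lines. Each line was 1 array per condition, and the difference between lines was not tested. The IFITM10 probe differed by -0.44 in HN4/DDP, with a scanner SD of 0.28 that covers the reading of the spots alone, and by 5.20 in HN30/DDP. The HN4/DDP value passed no call and was -0.19 with normexp, inside the scanner SD, so the limit was not met there. The lower quartile of all tested probes in HN4/DDP was -0.45, so the value was not unusual. Among its neighbours, SYT8 differed by -4.61 and 1.05, TNNI2 by -5.74 and 1.34, and TNNT3 by -3.77 and 2.26. Near IFITM1, IFITM2 and IFITM3, LOC101927270 differed by -1.23 and 1.93.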

How the results depend on the processing

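The difference of IFITM1 (A_23_P72737) kept its direction and stayed over 2 in both lines under all 9 settings tried. In HN4/DDP it was 6.85 with normexp, and in HN30/DDP it was 4.21 with normexp, 4.49 with median scaling, 5.26 with the 75th percentile over probes well above background on all arrays and 4.68 with a pseudocount of 16, each off the reported value by more than the scanner SD. The differences of IFITM2 and IFITM3 in HN30/DDP turned to -0.053 and -0.11 with median scaling, while the median of all probes fell by 0.42. They were 0.72 and 0.66 with the 75th percentile over bright probes, 0.76 and 0.66 with the trend with brightness taken off, 0.95 and 0.78 with quantile normalization and 0.95 and 0.82 in the deposited table. At a threshold of 1 the count of IFITM probes higher in HN4/DDP was 4 in place of 2, and the counts of interferon-stimulated genes were 10 in place of 4 in HN4/DDP and 7 in place of 1 in HN30/DDP. The latter was 4 with the 75th percentile over bright probes, 2 with quantile normalization and 2 in the deposited table, 3 with the trend with brightness taken off (a setting chosen after seeing the data), and 0 when both arrays had to be well above background, since IFI44L was dim in HN30. The cause of the other shifts was not tested. The remaining 55 values stayed within the scanner SD for this probe or near the reported count, the HN4/DDP count of interferon-stimulated genes being 3 to 5. A fit with the line as a block was not run, since the members were chosen by this contrast. Differences of dim probes are limited by signal over background, and without a second array per condition the variation between cultures is unknown.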
